A study of Mus musculus with 12 samples.

Results

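The nuclear-encoded subunits of the mitochondrial respiratory chain were taken from the expression values of whole kidney tissue as the genes whose symbol begins with the family names of complexes I to V (Nduf followed by a, b, c, s or v, the 4 Sdh genes, Uqcr, Cox4 to Cox8 and Atp5). This pattern matched 91 of 22053 rows of the table. The 7 Ndufaf assembly factors were set aside, as were Cox7a2l, Atp5s and Atp5sl, which are not structural subunits. Of the remaining 81 structural subunit genes, 78 had at least 1 FPKM in at least 4 of 12 mice, where FPKM is the fragments read from a gene, divided by transcript length in kilobases and by library size. They comprised 36 genes of complex I, 4 of complex II, 8 of complex III, 15 of complex IV and 15 of complex V, out of 13148 genes tested in all. The rule uses symbols and a minimum level, so a subunit gene with another symbol is left out. It was written with earlier results of these data known.

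The mice were C57BL/6 wild type, 4 per group. CKD mice ate a diet with 0.2% adenine, which damages the kidney tubules, from 8 to 16 weeks of age and received weekly i.p. PBS. CKD+Fe mice had the same diet and were given iron dextran (0.5 g/kg, weekly, i.p.) in place of PBS, and control mice received PBS on the same diet without adenine. Each mouse gave 1 stranded mRNA library. The mice are named by their label numbers.

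The respiratory chain passes electrons from NADH (complex I) and succinate (complex II) through ubiquinone to complex III, cytochrome c and complex IV, where oxygen is reduced, and complex V uses the resulting proton gradient to make ATP. Mitochondrial DNA encodes part of the core of complexes I, III, IV and V, and all other subunits are made from nuclear genes and imported. Proximal tubule cells are rich in mitochondria and rely on respiration to power reabsorption, so whole kidney carries high levels of these transcripts. Iron is a component of the chain itself, as iron-sulfur clusters in complexes I, II and III and as heme in complexes II, III and IV. The mitochondrially encoded subunits were not analysed here.

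Promoter sequences are shown for 5 genes that differ in how they responded within their families: Cox6b1 and Cox6b2, alternative forms of a complex IV subunit, Atp5g3 and Atp5g2, which encode the same ring subunit of complex V, and Sdhb, the iron-sulfur subunit of complex II. RefSeq promoters of build GRCm38.p6, 300 bases around the RefSeq gene start, were matched for 64 of the 78 genes. The match was by Ensembl gene identifier, or by symbol where that found no promoter. In 56 of these the window holds the gene start of the deposited table, and in 8 it does not. The Atp5g2 window lies 1055 bases from the start that the table gives. Capitals mark letters that match, on either strand, NRF1 (GCGCANGC), ETS (CCGGAAG), ERR (CAAGGTCA) or YY1 (AAGATGGCG), motifs of factors known to act on nuclear genes for mitochondria. Each sequence is written 5′ to 3′ on the strand of its gene. The windows are chr7:30626065-30626364 (minus strand), chr7:4753045-4753344 (minus), chr2:73911277-73911576 (minus), chr15:102670998-102671297 (minus) and chr4:140961021-140961320 (plus).
Cox6b1: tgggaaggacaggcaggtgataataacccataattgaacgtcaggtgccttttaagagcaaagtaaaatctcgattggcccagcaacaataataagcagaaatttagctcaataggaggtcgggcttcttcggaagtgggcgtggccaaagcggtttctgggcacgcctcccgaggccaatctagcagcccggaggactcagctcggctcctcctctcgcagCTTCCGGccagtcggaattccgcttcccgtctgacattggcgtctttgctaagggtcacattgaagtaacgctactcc
Cox6b2: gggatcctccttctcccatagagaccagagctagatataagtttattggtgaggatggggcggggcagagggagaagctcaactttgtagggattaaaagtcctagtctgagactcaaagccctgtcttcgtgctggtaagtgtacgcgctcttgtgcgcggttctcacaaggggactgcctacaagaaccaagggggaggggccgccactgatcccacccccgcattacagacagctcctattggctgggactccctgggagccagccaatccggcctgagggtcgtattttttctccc
Atp5g3: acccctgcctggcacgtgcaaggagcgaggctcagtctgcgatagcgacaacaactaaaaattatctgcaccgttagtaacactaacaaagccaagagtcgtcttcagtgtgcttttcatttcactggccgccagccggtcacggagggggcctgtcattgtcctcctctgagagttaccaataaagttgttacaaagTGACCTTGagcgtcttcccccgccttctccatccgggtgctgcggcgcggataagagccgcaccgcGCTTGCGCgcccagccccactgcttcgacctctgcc
Atp5g2: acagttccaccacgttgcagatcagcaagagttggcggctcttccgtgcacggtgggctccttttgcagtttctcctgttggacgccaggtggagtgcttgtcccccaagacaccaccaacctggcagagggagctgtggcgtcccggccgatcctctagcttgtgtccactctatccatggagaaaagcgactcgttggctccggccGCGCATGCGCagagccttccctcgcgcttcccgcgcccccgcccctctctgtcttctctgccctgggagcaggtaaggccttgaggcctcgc
Sdhb: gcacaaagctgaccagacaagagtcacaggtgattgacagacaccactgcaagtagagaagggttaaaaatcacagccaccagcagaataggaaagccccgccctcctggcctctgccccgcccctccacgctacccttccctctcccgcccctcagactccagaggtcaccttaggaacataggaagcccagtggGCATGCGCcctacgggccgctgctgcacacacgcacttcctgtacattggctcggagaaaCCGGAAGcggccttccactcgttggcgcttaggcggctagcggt

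The printed Cox6b1 promoter holds ETS letters, that of Atp5g3 NRF1 and ERR letters, that of Atp5g2 NRF1 letters that match on both strands over shared bases, and that of Sdhb NRF1 and ETS letters, whereas the Cox6b2 window holds none of the 4 motifs. Across the 64 subunit promoters, NRF1 letters were present in 34.4%, against 10.12% of all 27025 promoters of the same length. ETS letters were in 23.4% against 9.12%, ERR letters in 6.2% against 1.53% and YY1 letters in 9.4% against 1.49%. The promoters compared were not matched for GC content or for expression level, so the part of these in the shares was not tested. In 30 of the 64 promoters none of the 4 was found. Subunit genes with NRF1 letters had a median log2 fold change of -0.88 in CKD against control (22 genes), and those with no motif had -0.82 (30 genes).

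Nearly the whole set was lower in CKD kidney. Of the 78 subunit genes, 73 were lower in CKD than control and 1, Cox6b2, was higher (limma, adjusted p under 0.05 over all genes tested). Among all 13148 genes, 13.3% were called lower and 54.6% higher. The median log2 fold change was -0.84 for the subunits and 0.50 for all genes. After rescaling that brings the median of all genes to -0.03, it was -1.46 for the subunits by the median-of-ratios method and -0.53 by quantile normalization. The middle of the set was narrow, with quartiles of -0.94 and -0.73. The median subunit gene kept 55.2% of its control level. In 58 of the 78, every CKD mouse was below every control mouse, an arrangement found for 10.5% of all genes. The 4 subunit genes that did not pass the test were Ndufa7, Cox4i2, Ndufa4l2 and Atp5g2. In whole tissue, fewer cells of a type and less RNA per cell cannot be told apart.

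**Figure D1:**
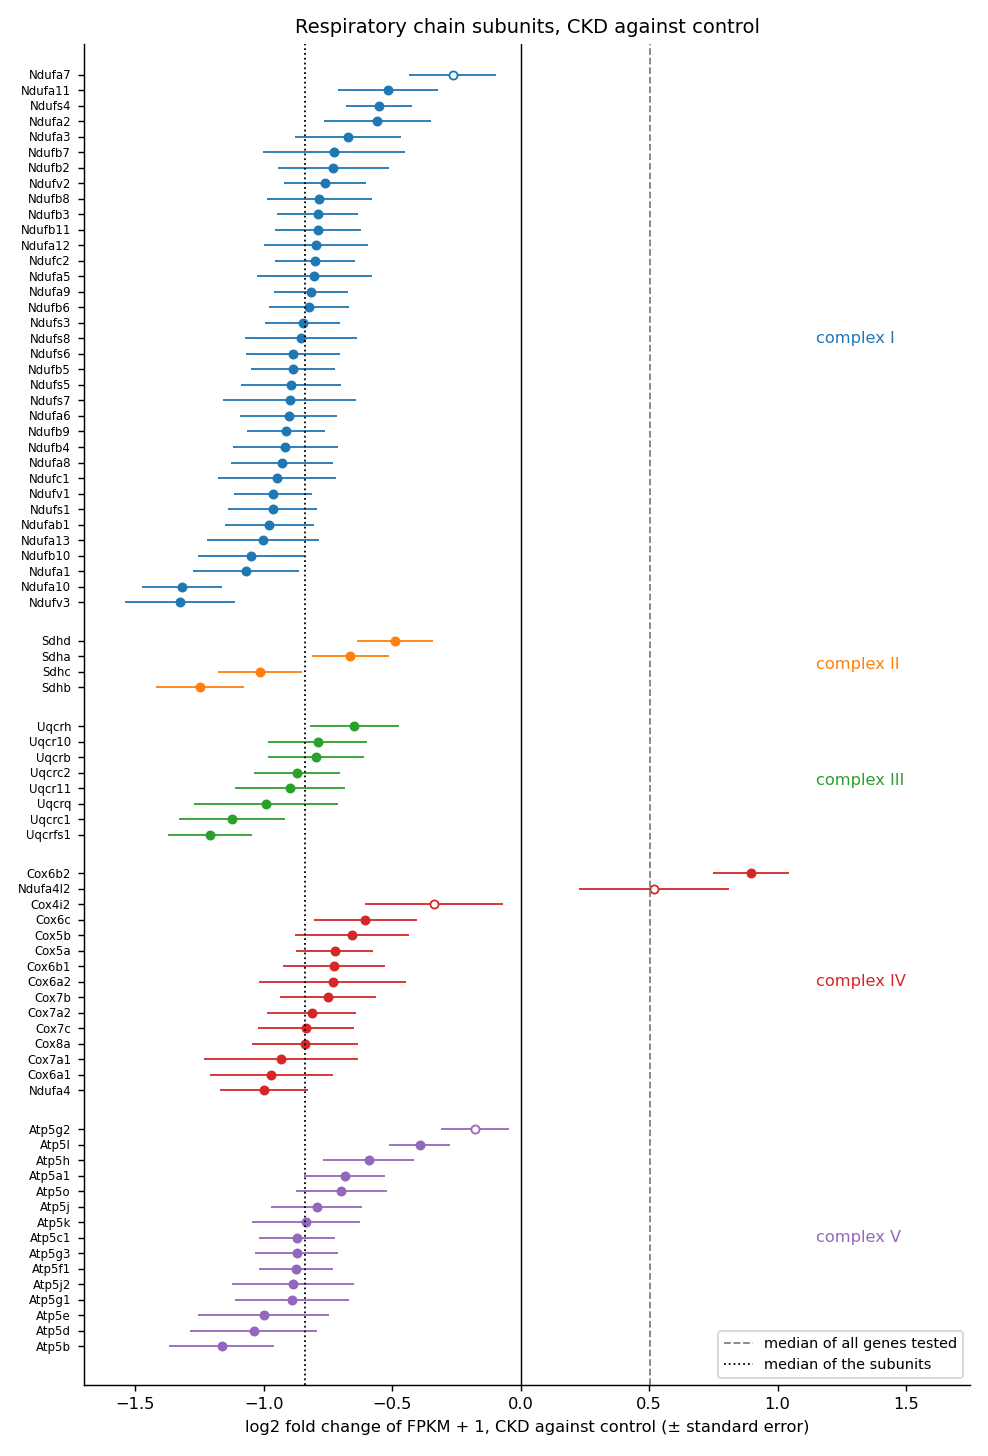
CKD against control, as the log2 fold change of FPKM + 1, for 77 of the 78 subunit genes, grouped by complex, with bars for the standard error. Filled points passed the test and open points did not, the dotted line is the subunit median (-0.84), and the dashed line is the median of all genes tested (0.50).

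Together the 78 genes made up 6.57% ± 0.963 (SD, n = 4) of all listed FPKM in control mice, 4.38% ± 0.532 in CKD mice and 4.96% ± 0.423 in CKD+Fe mice. The control mice were at 6.51%, 6.09%, 7.94% and 5.75% (mice 012811, 012822, 042301 and 042310). The CKD mice were at 4.82%, 4.0%, 4.86% and 3.85% (021320, 022301, 110310 and 120102), and the CKD+Fe mice at 4.33%, 5.20%, 5.10% and 5.21% (042702, 062910, 111710 and 122320). All mice fed adenine were below all control mice, and control mouse 042301 was the highest. Levels per transcript length spanned a wide range within the set, from 1.56 FPKM for Cox4i2 to 2777 FPKM for Atp5b in control mice, and 70 of the 78 genes had control means above 100 FPKM.

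Mice 042301, 110310 and 042702 had the lowest array quality weights over all genes (0.30, 0.20 and 0.38) and are left out below in an alternative. The median subunit gene in control mouse 042301 was at 150.1% of the mean of the other controls, in CKD mouse 110310 at 131.4% of the other CKD mice, and in CKD+Fe mouse 042702 at 84.2% of the other CKD+Fe mice. Other mice also deviated in the subunits, since control mouse 042310 was below the mean of the other controls for 72 of the 78 genes (median deviation -0.38 on the log2 scale) and CKD mouse 120102 was below the other CKD mice for 77 (-0.35), further than 042702 (-0.25). Subunit transcripts were short, with a median of 703 bases against 1867 for all genes tested. Across all genes, Spearman's rho between transcript length and the deviation of a mouse from its group ran from -0.40 in 110310 and -0.33 in 042301 to 0.39 in 042310 and 0.43 in 120102. It was -0.06 in 042702 and within 0.09 of 0 in mice 012811, 012822, 022301 and 122320. The part of this in the subunit results was not tested beyond an adjustment for length and GC content. Under it 65 subunit genes were lower and 2 higher in CKD, with a median of -0.55, beside 1761 lower and 7562 higher of all 13148 genes. Without the 3 mice, 74 were lower and 1 higher, beside 2063 and 7811 of all genes. Other genes of 500 to 1000 bases had a median log2 fold change of 0.18 in CKD against control, and the 51 subunit genes of that length -0.84. Relative sequencing depth ran from 0.683 to 1.0 across mice, with that of mouse 111710 uncertain by a factor of 2, and the depth in reads is unknown.

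**Figure D2:**
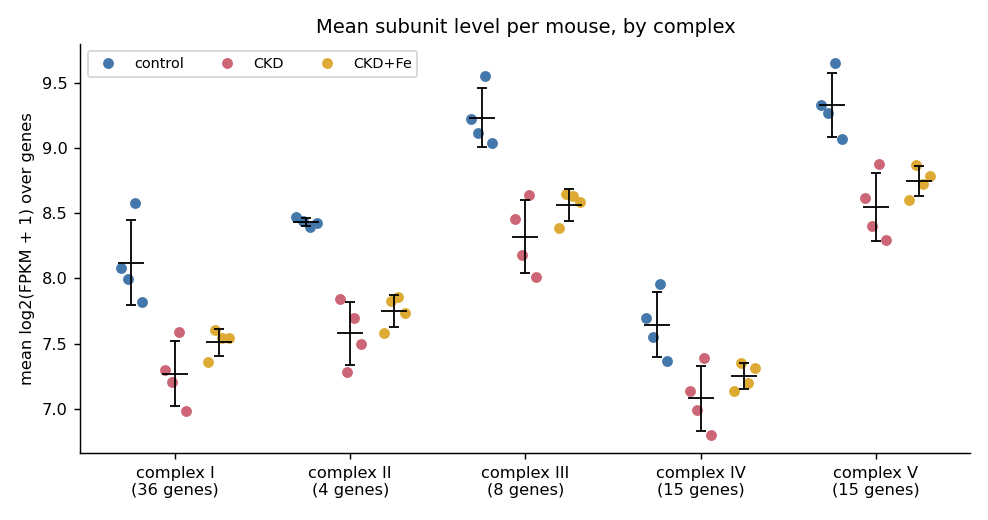
Mean log2(FPKM + 1) over the genes of each complex, with 1 point per mouse and bars for the group mean ± SD (n = 4). For complexes I to V the CKD and CKD+Fe points sit lower than the control points, with some overlap for complex IV, and complex II has the narrowest spread among controls (SD 0.032).

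Complex I takes electrons from NADH in its matrix arm and pumps protons through its membrane arm. Of its 36 nuclear subunit genes, 35 were lower in CKD, with medians of -0.85 in the matrix arm (15 of 16 lower) and -0.89 in the membrane arm (19 of 19 lower). Ndufab1, the acyl carrier protein found in both arms, had a log2 fold change of -0.98. The subunits that carry the cofactors were lower as well. Ndufv1, which binds NADH and FMN, went from 284 ± 32.8 FPKM in control to 146 ± 28.3 in CKD mice (SD, n = 4; log2 fold change -0.97). The log2 fold changes were -0.96 for Ndufs1 and -0.85 for Ndufs8, which hold iron-sulfur clusters, -0.76 for Ndufv2, which holds a single such cluster, and -0.90 for Ndufs7, which holds the cluster nearest ubiquinone and lost its call after quantile normalization (-0.54, adjusted p = 0.0524).

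The extremes of complex I were accessory subunits. Ndufv3 (ENSMUSG00000024038; chr17:31520114-31531326, GRCm38), an accessory subunit of the NADH-binding module, had the lowest fold change of the 78 genes. It was at 454, 475, 819 and 423 FPKM in the control mice, at 205, 196, 277 and 168 in the CKD mice and at 221, 309, 232 and 260 in the CKD+Fe mice. Every control mouse was above all adenine-fed mice, and 042301 was far above the other controls. The log2 fold change in CKD was -1.33 (standard error 0.21, limma adjusted p = 0.000127; two-sided exact permutation p = 0.0286, the minimum for groups of 4). Ndufa10, an accessory subunit of the membrane arm, stood at 249, 259, 329 and 215 FPKM in control mice against 102, 93.7, 127 and 95.4 in CKD mice. These groups did not overlap either, and the log2 fold change was -1.32 (standard error 0.16, limma adjusted p = 9.76e-06). Ndufa7, an accessory subunit of the matrix arm, was the least changed. Its levels were 367, 321, 520 and 327 FPKM in control and 295, 332, 374 and 261 in CKD mice, so the groups overlapped (log2 fold change -0.27, limma adjusted p = 0.176).

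Complex II, succinate dehydrogenase, is encoded entirely by nuclear genes and also works in the citric acid cycle. All 4 of its genes were lower in CKD, by unequal amounts. Sdhb, the iron-sulfur subunit, was at 436, 451, 589 and 377 FPKM in control mice and at 224, 158, 234 and 164 in CKD mice. Sdhc, a membrane anchor that helps hold the heme, was at 329, 327, 330 and 334 FPKM in control and at 203, 114, 198 and 153 in CKD mice. Neither gene overlapped between the groups, and the log2 fold changes were -1.25 (standard error 0.17, limma adjusted p = 3.43e-05) and -1.02 (0.16, adjusted p = 0.000125). Sdha, the flavoprotein that oxidizes succinate, was at 310, 323, 268 and 334 FPKM in control and at 238, 165, 182 and 198 in CKD mice. The other anchor gene, Sdhd, was at 353, 301, 243 and 327 FPKM in control and at 250, 192, 214 and 210 in CKD mice. Sdha did not overlap, with 042301 the lowest control, whereas Sdhd overlapped because 042301 was below CKD mouse 021320. Their log2 fold changes were -0.66 (standard error 0.15, limma adjusted p = 0.00147) and -0.49 (0.15, adjusted p = 0.00934). After quantile normalization, Sdha (-0.27) and Sdhd (-0.11) no longer passed the test, nor did Sdha with the length and GC adjustment (-0.31) or Sdhd with the gene Kap left out (-0.38).

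Complex III passes electrons from ubiquinol to cytochrome c. All 8 of its genes in the set were lower in CKD, with a median log2 fold change of -0.88. Cyc1, the gene of cytochrome c1, does not match the pattern. Uqcrfs1, the Rieske iron-sulfur protein, was lowest. Its FPKM were 447, 421, 484 and 411 in control mice, 240, 149, 211 and 172 in CKD mice and 177, 247, 239 and 222 in CKD+Fe mice. No adenine-fed mouse reached the lowest control, and the log2 fold change in CKD was -1.21 (standard error 0.16, limma adjusted p = 2.84e-05). Uqcrh, the hinge protein that contacts cytochrome c1, changed least, with 1112, 928, 1291 and 866 FPKM in control and 731, 647, 763 and 531 in CKD mice (log2 fold change -0.65, limma adjusted p = 0.0047). Those groups did not overlap, but the call was lost after quantile normalization (-0.35, adjusted p = 0.0536) and with the length and GC adjustment (-0.25, adjusted p = 0.0572).

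Complex IV, cytochrome c oxidase, is the complex with the most tissue-specific alternative subunits, and it held every subunit gene with a positive fold change in CKD. Of its 15 genes, 12 were lower and 1 higher, with a median of -0.73. The general forms in the table were abundant and lower (Cox4i1, the general form of Cox4, was not analysed here). Ndufa4, first named for complex I and now placed with complex IV, was the lowest, at 1616, 1406, 1504 and 1321 FPKM in control against 801, 672, 865 and 607 in CKD mice (log2 fold change -0.998, limma adjusted p = 0.000208). Control and CKD mice were fully apart. Log2 fold changes were -0.72 for Cox5a, a matrix-side subunit, -0.97 for Cox6a1, -0.73 for Cox6b1, -0.81 for Cox7a2 and -0.84 for Cox8a.

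Cox6b2 (ENSMUSG00000051811; chr7:4751791-4753094, GRCm38), the form of the Cox6b subunit known from testis, was the exception. It was at 20.2, 23.7, 20.9 and 15.5 FPKM in control mice, at 34.4, 39.9, 45.4 and 32.8 in CKD mice and at 60.1, 48.7, 54.7 and 50.8 in CKD+Fe mice. The 3 groups did not overlap, with control lowest and CKD+Fe highest. The log2 fold change was 0.90 in CKD against control (standard error 0.15, limma adjusted p = 0.000141) and 1.38 in CKD+Fe against control (adjusted p = 6.38e-06). After median-of-ratios rescaling, which shifts the median of all genes from 0.50 to -0.03, the CKD value was 0.30 and no longer passed the test (adjusted p = 0.102), while that of CKD+Fe was 0.79 (adjusted p = 0.000607). Its general counterpart Cox6b1, which joins the monomers of complex IV, was at 1392, 1121, 1817 and 1045 FPKM in control and at 829, 733, 966 and 673 in CKD mice. As the share of the summed Cox6b1 and Cox6b2 FPKM, which does not depend on the scaling between mice, Cox6b2 was 1.52% ± 0.391 in control, 4.57% ± 0.484 for CKD and 5.80% ± 1.38 for CKD+Fe mice (SD, n = 4). The highest control share was 2.07% and the lowest adenine-fed share 3.99%, so Cox6b1 remained the main form in every mouse.

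The other alternative forms of complex IV were at lower FPKM levels than the general forms measured. Ndufa4l2, the paralog of Ndufa4 known for induction by hypoxia, was at 5.69, 3.92, 5.84 and 3.74 FPKM in control, 6.43, 5.86, 13.95 and 4.92 among CKD mice and 9.19, 4.60, 4.24 and 3.80 among CKD+Fe mice. Mice 110310 and 042702 were the high values, and all groups overlapped (log2 fold change in CKD 0.52, limma adjusted p = 0.129). Cox7a1, a heart and muscle form, was at 56.8, 48.3, 101 and 43.2 FPKM in control against 39.8, 22.7, 45.8 and 20.4 in CKD mice, with overlap (log2 fold change -0.93, limma adjusted p = 0.0135), and made up between 4.97% and 9.92% of summed Cox7a1 and Cox7a2 in all mice. Cox6a2, another muscle form, reached 1 FPKM in 3 control mice, 1 CKD mouse and no CKD+Fe mouse, and its change (-0.73) lost its call in 5 of 12 refits with a single mouse removed and with the length and GC adjustment (-0.39). Cox4i2, a form known from lung, had means of 1.56 ± 0.784 FPKM in control, 0.979 ± 0.260 for CKD and 1.76 ± 1.14 for CKD+Fe mice and did not pass the test. Cox7b2 and Cox8c reached at most 0.342 FPKM in any mouse. Cox8b, the form of brown fat and muscle, stayed at or under 1.17 FPKM in all mice except the CKD+Fe mice 111710 (4.28) and 122320 (2.79). None of these 3 genes entered the test.

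**Figure D3:**
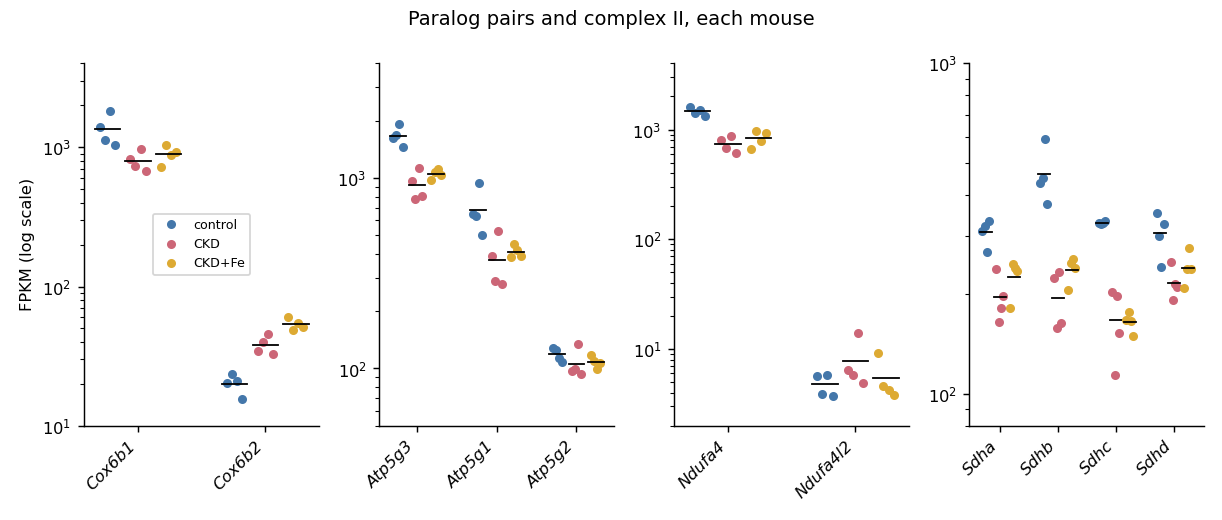
FPKM on a log axis of each mouse for the paralogs Cox6b1 and Cox6b2, Atp5g1 to Atp5g3, and Ndufa4 and Ndufa4l2, and for the complex II genes, with lines for group means (n = 4). Cox6b2 is the gene whose CKD and CKD+Fe points all lie above control, and Atp5g2 changes little next to Atp5g1 and Atp5g3.

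Complex V makes ATP in its catalytic head, driven by a ring of c subunits in the membrane. Of its 15 genes, 14 were lower in CKD, with a median log2 fold change of -0.87. Atp5b, the catalytic beta subunit and the most abundant subunit transcript, was at 2544, 2739, 3622 and 2204 FPKM in control and at 1315, 1068, 1591 and 989 in CKD mice. The groups did not overlap (log2 fold change -1.16, standard error 0.20, limma adjusted p = 0.000239). Atp5a1, its partner alpha subunit, went from 1089 ± 81.2 FPKM to 685 ± 121 (SD, n = 4; log2 fold change -0.68, limma adjusted p = 0.00177), a call that was lost after quantile normalization (-0.37, adjusted p = 0.105).

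The c ring is encoded by Atp5g1, Atp5g2 and Atp5g3, whose mature proteins are the same. Atp5g3 was at 1623, 1682, 1922 and 1461 FPKM in control and at 970, 780, 1129 and 802 in CKD mice (log2 fold change -0.87, limma adjusted p = 0.000373), with the groups apart. Atp5g1 was at 647, 629, 940 and 502 FPKM in control and 388, 287, 527 and 276 in CKD mice (log2 fold change -0.89, adjusted p = 0.00292), where CKD mouse 110310 was above the lowest control. Atp5g2 was at 128, 126, 114 and 108 FPKM in control and at 96.8, 99.1, 134 and 93.5 in CKD mice. Mouse 110310 was again the high value, and the difference did not pass the test (log2 fold change -0.18, limma adjusted p = 0.247). Without 110310 the value was -0.30 and passed. Atp5g2 thus made up 4.88% ± 0.707 of the summed FPKM of the 3 genes in control and 7.65% ± 0.783 in CKD mice (SD, n = 4).

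Other genes of the oxidative pathway come from lists chosen with earlier results of these data known, and 13.3% of all genes were called lower. Of 45 assembly factors tested, 25 were lower in CKD, 0 were higher and 20 did not pass, with a median log2 fold change of -0.42. After median-of-ratios rescaling they were 44 lower and 0 higher (median -1.02), beside 4075 of all 13148 genes lower. After quantile normalization they were 37 lower and 1 higher (-0.74), beside 3363 of all genes lower. With the length and GC adjustment they were 20 lower and 1 higher (-0.27), beside 1761 of all genes lower. Calls came from the same limma fit, and no list was tested as a set. Of the 18 electron carriers and ubiquinone synthesis genes, 12 were lower, 0 higher and 6 did not pass (median -0.63; -1.21 after median-of-ratios rescaling and -0.91 after quantile normalization), among them Cycs, cytochrome c (-1.09), and Etfb, which delivers electrons from fatty acid oxidation (-1.52). Of the 13 citric acid cycle genes, 12 were lower and 0 higher (median -0.82; -1.44 and -0.52 after these rescalings), and citrate synthase (Cs) was the gene that did not pass (-0.23, limma adjusted p = 0.0904). Cox7a2l, a factor linked to supercomplexes of complexes III and IV, was matched by name only, and its function in these mice was not tested. It was higher in CKD, at 126, 122, 110 and 112 FPKM in control and 132, 163, 178 and 144 in CKD mice. Those groups did not overlap (log2 fold change 0.39, limma adjusted p = 0.0173). Every CKD mouse was likewise above every control mouse in 5866 of all 13148 genes. The Cox7a2l fold change was -0.23 after median-of-ratios rescaling, and its call was lost with array quality weights (0.24) and without the 3 mice (0.28).

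Markers of several cell types were read from the same fit, in which 13.3% of all 13148 genes were called lower and 54.6% higher in CKD. After median-of-ratios rescaling, 4075 of all genes were lower and 3571 higher, and after quantile normalization 3363 and 3060. Of 15 proximal tubule markers, 14 were lower in CKD (median -1.95), and their summed level was 9334 to 12582 FPKM in control, 1532 to 2904 in CKD and 1527 to 4277 with iron, with no marker at 0. Control mouse 042301, the highest control for the subunits, had the lowest proximal tubule sum of the controls. Of 10 thick ascending limb and distal tubule markers, 2 were lower and 3 higher (median 0.52, or -0.10 after median-of-ratios rescaling; sums 2046 to 2753 in control and 2516 to 3918 in CKD mice). Macrophage markers were higher in 10 of 10 (sums 125 to 259 in control and 1823 to 3827 in CKD mice), fibroblast and matrix markers in 9 of 9 (92.1 to 129 and 582 to 1024), and mural cell markers in 5 of 8 with 1 lower (37.3 to 43.9 and 77.3 to 81.3; 3 higher and 3 lower after median-of-ratios rescaling, 2 higher and 3 lower after quantile normalization). Adipocyte markers summed to 49.4 to 121 FPKM in control, 31.3 to 71.4 without and 54.6 to 132 with iron in CKD mice. Fabp4 made up most of this sum in every mouse. Striated muscle markers summed to at most 7.3 FPKM, with Myh4 at 0 in all mice. The 7 adipocyte markers other than Fabp4 summed to 38.8 FPKM in CKD+Fe mouse 122320, 9.69 in CKD+Fe mouse 111710 and 6.65 in control mouse 012822, and to at most 1.34 in any other mouse. These 3 mice were also the ones in which Cox8b, the form of brown fat and muscle, was above 1 FPKM. The part of these markers in the subunit results was not tested.

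The comparison of CKD+Fe with CKD mice asks whether iron dextran changed these genes during the adenine diet. No subunit gene passed the adjusted test in either direction (limma), where all genes gave 0% lower and 0.00761% higher, a single gene. At an unadjusted p under 0.05, 2 subunit genes were higher, Cox6b2 and Ndufa10, and 0 were lower, beside 3.28% of all genes higher and 2.73% lower. The log2 fold changes were positive for 76 of the 78 genes, with a median of 0.21 against 0.00 for all genes, and their standard errors ran from 0.12 to 0.30. By complex the medians were 0.24, 0.18, 0.23, 0.19 and 0.21 for complexes I to V. Cox6b2 was the 1 subunit gene whose CKD+Fe mice were all above the CKD mice, as was 1.35% of all genes (log2 fold change 0.49, standard error 0.15, limma adjusted p = 0.479; two-sided exact permutation p = 0.0286). Ndufa10 was at 111, 146, 135 and 146 FPKM in CKD+Fe mice (log2 fold change 0.36, limma adjusted p = 0.79). Ndufs7 was at 200, 183, 205 and 169 FPKM in CKD+Fe against 108, 139, 221 and 93.9 in CKD mice (0.50, adjusted p = 0.869), where 110310 was above all CKD+Fe mice. The negative values belonged to the rare forms Ndufa4l2 (-0.41) and Cox6a2 (-0.26).

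This comparison rested on which mice entered it. Without mice 042301, 110310 and 042702, 1 subunit gene was called higher, Ndufa10 (0.55, limma adjusted p = 0.0489), beside 51 of all 13148 genes. At an unadjusted p under 0.05, 60 of the 78 were higher, beside 8.06% of all genes, with a median of 0.37. Leaving out CKD mouse 110310 alone gave a median of 0.31 with 15 genes higher at an unadjusted p under 0.05. Leaving out CKD+Fe mouse 042702 alone gave 0.28 with 6 genes. Leaving out CKD mouse 120102 alone, the lowest CKD mouse in the subunits, gave 0.13 with 1 gene. The unadjusted share of all genes was not counted in these single-mouse refits. The 3 mice were known to stand apart when they were left out, and removing a CKD mouse that was high and a CKD+Fe mouse that was low in the subunits widens the difference by construction. The proximal tubule markers had a median of 0.48 in the same comparison with all 12 mice, with 4 of 15 higher at an unadjusted p under 0.05, and among CKD+Fe mice 042702 had the lowest sum of these markers. Their part in the subunit values was not tested.

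**Figure D4:**
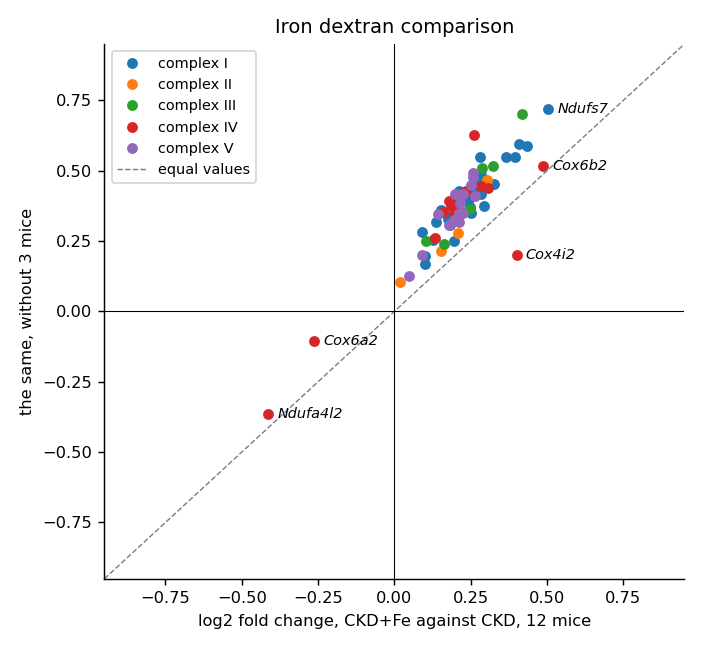
Iron-treated against untreated CKD, as the log2 fold change of each subunit gene with all 12 mice (horizontal axis) and without mice 042301, 110310 and 042702 (vertical axis), coloured by complex, with a dashed line of equal values. Most genes lie above the line, since the median is 0.21 with all mice and 0.37 without the 3.

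Against control mice, CKD+Fe mice still had lower subunit levels, and the CKD+Fe and CKD contrasts share those controls. In CKD+Fe mice, 60 of the 78 genes were lower and 1, Cox6b2, was higher than in control (limma), beside 11% of all genes lower and 54.4% higher. The median log2 fold change was -0.63, and the median gene kept 63.6% of its control level. In 56 genes all CKD+Fe mice were below all control mice, as in 9.85% of all genes. By complex, 29 of 36, 3 of 4, 7 of 8, 9 of 15 and 12 of 15 genes were lower for complexes I to V. Sdhd, at 209, 239, 276 and 239 FPKM in CKD+Fe mice, was the complex II gene that did not pass (log2 fold change -0.34, limma adjusted p = 0.0562), and its CKD+Fe and control values overlapped. Sdhc, at 167, 177, 166 and 150 FPKM, had the lowest log2 fold change of complex II (-0.998, adjusted p = 0.000171). After quantile normalization, 37 of the 78 genes were lower, beside 2967 of all 13148 genes.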

How the data were processed

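RNA from whole kidney of 12 mice was measured with stranded mRNA libraries and single-end reads. According to the submitters' processing notes, bcl2fastq 2.19, STAR 2.5.2 and Cufflinks 2.1.1 were used with build GRCm38; the annotation is not given in the sources used here. The authors deposited FPKM values, 1 per protein-coding gene and mouse, with a status. The 30 values in 17 genes marked as failed were set to missing. FPKM are not counts, so no count test was run, the depth in reads is unknown, and a change in total RNA cannot be seen. Reads that fit pseudogenes or paralogs may be assigned with error. Of the subunit genes, 29 overlap a gene on the opposite strand and 11 a gene on the same strand.

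The log2(FPKM + 1) values were fitted by limma 3.58.1 under R 4.3.3, all mice in 1 fit with a variance trend, for the 13148 genes that reached 1 FPKM in 4 or more mice. Two-sided p-values had Benjamini-Hochberg adjustment across those genes (threshold 0.05). Fold changes on this scale understate changes of low genes. Single genes also had an exact permutation test over 70 arrangements. Each library is from a separate mouse. The fit was also run on simulated data with independent genes and few changes, a setting unlike the broad changes in these data. The members, gene lists and named genes were chosen with earlier results of these data known. Named genes were the lowest and highest of each complex in CKD, every member called higher, the smallest p in each direction after iron, paralog pairs, cofactor subunits and complex II; 1 gene of the rule is not reported here. Lists not matched in full were the assembly factors (46 of 47) and striated muscle markers (8 of 9). Alternatives were another pseudocount, other filters, median-of-ratios rescaling, quantile normalization, the gene Kap left out, length and GC splines, 2 groups only, array quality weights, an adjusted p under 0.5, each mouse left out and 3 mice left out. Figures were drawn with matplotlib 3.10.9.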

Additional observations from a re-analysis of the deposited data

Results flagged for a closer look

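Over 93 groups of 4 mice (30 named genes and the summed share of the subunits), 9 held 1 mouse whose gap to the nearest other mouse exceeded Dixon's critical value for 4 samples, and chance flags about 1 in 20 such groups. CKD mouse 110310 was high for Atp5g2 (134 FPKM) and Ndufa4l2 (13.95 FPKM), CKD mouse 021320 was high for Ndufs1 (94.6 FPKM), and CKD mouse 120102 was low for Cox4i2 (0.594 FPKM). CKD+Fe mouse 042702 was low for Atp5a1 (635 FPKM) and for the share of all FPKM in subunit genes (4.33%), and high for Ndufa4l2 (9.19 FPKM). Control mouse 042301 was high for Ndufv3 (819 FPKM) and control mouse 042310 for Ndufs1 (136 FPKM), the latter within a narrow range among controls.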

How the results depend on the processing

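The count of subunit genes lower in CKD than control stayed between 61 and 76 under every alternative and between 68 and 74 with each mouse left out. Of the 73 genes, 68 were called lower whichever mouse was left out, and 56 under median-of-ratios rescaling, quantile normalization and the length and GC adjustment alike. The same joint counts over all genes are not given here. The median of -0.84 was -1.46 after median-of-ratios rescaling, -0.53 after quantile normalization and -0.55 with the length and GC adjustment, and ran from -0.92 to -0.71 with each mouse left out; the median of all genes was 0.50, -0.03, -0.03 and 0.49 in turn. All genes split into 1748 lower and 7181 higher, 4075 and 3571 after median-of-ratios rescaling, and 3363 and 3060 after quantile normalization. With the length and GC adjustment they split into 1761 and 7562. The count higher in CKD was 0 after median-of-ratios rescaling, 2 with the length and GC adjustment (Ndufa4l2 in addition) and 2 at an adjusted p under 0.5. The count higher in CKD+Fe than CKD was 2 with array quality weights, beside 91 of all 13148 genes. It was 1 without mice 042301, 110310 and 042702, beside 51 of all genes. It was 1 at an adjusted p under 0.5, and 0 with each single mouse left out. The count lower in CKD+Fe than control was 37 after quantile normalization, beside 2967 of all genes, and 46 to 65 with each mouse left out. For all genes, counts at an adjusted p under 0.5 and with each mouse left out are not given here.

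Among the 30 named genes, 1273 of 1316 refitted values kept their direction and side of the threshold, 18 lost a call, 11 gained one and 14 changed sign. In CKD against control, the sign changed for Atp5g2 (0.015 after quantile normalization, 0.14 with the length and GC adjustment), Ndufa7 (0.085 and 0.097 in the same settings) and Ndufa4l2 (-0.005 after median-of-ratios rescaling, -0.25 after quantile normalization). In CKD+Fe against CKD, it changed for Atp5a1 without CKD mouse 022301 (range -0.035 to 0.17 with each mouse left out), for Atp5g2 with the length and GC adjustment (-0.060) and without CKD mouse 120102 (range -0.005 to 0.17), and for Sdhc after quantile normalization (-0.059), with Kap left out (-0.018) and without mouse 022301, 120102 or 062910 (range -0.15 to 0.12). The cause was not tested. The depth in reads is unknown, which limits what can be said of the rarest forms. No paired analysis was possible because the groups share no replicate numbers.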
